A study of Mus musculus with 42 samples.

Results

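The libraries described here were made with the SMART-Seq v4 kit for very small amounts of RNA from 0.25 ng of liver RNA per reaction. They were chosen by the kit, the amount and the fraction in their labels, and they are 6 of the 42 libraries of the series, 3 from input RNA and 3 from immunoprecipitated (IP) RNA. Every library came from untreated Gfi1Cre/+;Rpl22HA/HA mice, so that input and IP carry the same alleles, and no mouse without Cre was among them. The growth protocol gives an age of P30, whereas a second label field gives neonatal pups of P1. The paper gives P30 for the mice whose RNA was sequenced and P1 for livers used in immunostaining. Input is RNA of the whole liver homogenate before the pull-down and IP is RNA bound to an antibody against the HA tag. RNA of the same 3 mice was also used for SMART-Seq v4 libraries from 4 ng and for TruSeq libraries from 70 ng, against which the 0.25 ng values are set side by side. The 2 SMART-Seq v4 amounts had the same number of PCR cycles and were sequenced at one centre. The TruSeq libraries were sequenced at another, so that kit, amount and centre cannot be told apart in a comparison with them.

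In a RiboTag mouse, Cre recombinase switches the ribosomal protein gene Rpl22 to a form with an HA tag, and the tagged ribosomes are pulled down together with the mRNAs they carry. Gfi1 encodes a zinc finger repressor of transcription that acts in blood stem cells and in the lymphoid and myeloid lineages, and the tag is permanent in all descendants of a cell that once expressed Cre. Most liver RNA comes from hepatocytes, while Kupffer cells, the resident macrophages, and other blood cells are a small part of the tissue. SMART-Seq v4 primes cDNA on poly(A) tails, adds a common end by template switching and amplifies full-length cDNA by PCR. The livers were whole, so that for the level of every marker below the number of cells and the RNA per cell cannot be told apart. Input and IP came from the same livers, so this concerns levels and not the change between the fractions. The share of each cell type that carried the tag was not measured in these libraries.

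Exon counts summed to between 22951893 and 24347672 reads in the 0.25 ng input libraries and to between 13971566 and 15047219 reads in the IP libraries. At these depths 3 reads correspond to between 0.123 and 0.131 CPM (reads per 1000000 counted reads of the library) in input and to between 0.199 and 0.215 CPM in IP, which cover counting error only. Alignments to more than 1 place were not counted, and they were 31.8% to 40.7% of the tallied alignments in input and 55.0% to 60.6% in IP. IP replicate 1 had lower summed levels of Kupffer cell, monocyte and dendritic cell genes than the other IP libraries, at 0.25 ng and at 4 ng.

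Of 14300 genes tested in the 0.25 ng libraries, 2831 (19.8%) rose in IP and 2449 (17.1%) fell (edgeR quasi-likelihood test, adjusted p under 0.05). The 4 ng libraries gave 4594 higher genes (30.4%) and 4334 lower genes (28.7%) of 15091 tested, together 59.2%. The 70 ng TruSeq libraries gave 2665 (18.1%) and 2458 (16.7%) of 14707. These shares differ between the protocols and are the background for every list count below. The typical spread between replicates, the biological coefficient of variation, was 0.519 at 0.25 ng, 0.255 at 4 ng and 0.572 in TruSeq. Fold changes are on edgeR's TMM scale, on which the median gene stood at 0.06 (log2). Scaling by library totals without mitochondrial and ribosomal RNA genes moved that median to 0.52 and the split to 4005 higher and 1512 lower genes, or 72.6% higher against 53.6%. On the deposited RPKM values, limma on log2(RPKM + 1) called 4181 of 7772 genes tested, 28.7% of them higher.

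Gfi1 itself (chromosome 5, 107716657 to 107726036, GRCm38), the gene whose promoter drives Cre, had 0 reads in the 3 input libraries at 0.25 ng and 0, 17 and 49 reads in the IP libraries. The IP values of 0, 1.13 and 3.34 CPM had a mean 35.3-fold above the level of 3 reads over the 3 inputs. This 3-read floor covers counting error only, so that a fold above it is no lower bound of the change. IP replicate 1 held no read of Gfi1, which was too low for the test at this amount. In the 4 ng libraries the same RNA gave 0, 0.0812 and 0.132 CPM in input and 0.694, 1.38 and 1.62 CPM in IP, a log2 fold change of 3.38 ± 0.76 (SE, adjusted p = 0.00345). Rpl22, the tagged ribosomal protein, had 29.1, 22.9 and 26.1 CPM in input and 81.0, 33.2 and 51.1 CPM in IP at 0.25 ng. Every IP library was above every input library, but the log2 fold change of 0.64 ± 0.36 did not pass the test (adjusted p = 0.213).

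Kupffer cell genes were all higher in IP at 0.25 ng. All 17 listed genes were read in all 6 libraries and all 17 rose in IP, against 19.8% of all genes tested. Their median log2 fold change was 4.75 at 0.25 ng, 4.67 at 4 ng and 4.70 in TruSeq, where 17 of 17 also rose. Clec4f, a lectin that marks Kupffer cells (chromosome 6, 83644542 to 83656187), had 152, 152 and 125 CPM in input and 3281, 7052 and 5386 CPM in IP. IP and input did not overlap, and the log2 fold change was 4.70 ± 0.29 (adjusted p = 2.2e-05). C1qa, a chain of complement C1q made by macrophages, had 57.3, 46.5 and 53.9 CPM in input and 2141, 3569 and 3006 CPM in IP (5.30 ± 0.24, adjusted p = 1.27e-05). Cd5l, a secreted macrophage protein, had 69.5, 59.1 and 57.5 CPM against 1808, 3214 and 2917 CPM (4.92 ± 0.25, adjusted p = 1.31e-05). For these genes the IP library of mouse 1 was the lowest of the 3.

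The smallest rise in the list belonged to Slc40a1, the iron exporter ferroportin, at 2.65 ± 0.23 (adjusted p = 9e-05), with 156, 228 and 182 CPM in input and 1303, 2081 and 1613 CPM in IP. Spic, a transcription factor of iron-recycling macrophages, had the lowest input level of the list and spread there from 0.042 over 1.11 to 3.66 CPM. Its IP values lay close together, at 53.0, 75.8 and 59.4 CPM. Its log2 fold change was 4.80 ± 0.96 at 0.25 ng (adjusted p = 0.00499) and 4.17 ± 0.22 at 4 ng, and the 0.25 ng call was lost without the libraries of mouse 2 (adjusted p = 0.0514). The summed level of the 17 genes was 805, 831 and 754 CPM in input and 16514, 32537 and 26731 CPM in IP, beside 16414, 33024 and 26704 CPM in the 4 ng IP libraries.

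Monocyte and dendritic cell genes rose as well. All 7 monocyte genes passed the test, with log2 fold changes from 4.82 to 5.78. So did 10 of 11 dendritic cell genes tested, with a median of 5.31. Over all genes tested the share that rose was 19.8%. Lyz2, the lysozyme of myeloid cells, had 66.2, 70.9 and 55.0 CPM in input and 1700, 4824 and 3325 CPM in IP (5.18 ± 0.37, adjusted p = 3.56e-05). The chemokine receptor gene Ccr2 had 0.798, 1.52 and 0.654 CPM in input and 43.7, 99.0 and 20.3 CPM in IP (5.29 ± 0.68, adjusted p = 0.000578). At 4 ng its IP values were 63.2, 58.7 and 38.6 CPM, and its error was 0.34. H2-Aa, a class II antigen-presenting molecule, had 15.1, 21.5 and 17.8 CPM in input and 791, 1141 and 1085 CPM in IP (5.31 ± 0.24, adjusted p = 1.27e-05).

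Other dendritic cell genes were seen in IP and missing from every 0.25 ng input library. Siglech, a receptor of plasmacytoid dendritic cells, had 0 reads in all 3 inputs and 137, 204 and 313 reads in IP. It stood 353-fold above the 3-read floor of the inputs, which is no lower bound of its change. At 4 ng its inputs had 0.636, 0.772 and 0.132 CPM and its log2 fold change was 4.36 ± 0.47. Cd209a, a lectin of monocyte-derived dendritic cells, likewise had 0 input reads and 82, 686 and 444 IP reads, 645-fold above that floor. Its 4 ng inputs held 0.132 to 0.170 CPM, and its log2 fold change there was 6.45 ± 0.48. Both passed the test at 0.25 ng (adjusted p = 0.00041 and 0.00111), but with the input at 0 their fitted fold changes are no measure of size. Zbtb46 was the tested member that did not pass, at 0.58, and Ccr9 was too low to be tested.

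T cell genes were higher in IP but noisy. Of 19 listed genes 18 were tested and 13 rose, with a median log2 fold change of 4.98, while 16 rose and 1 fell at 4 ng. Of all genes tested, 19.8% rose at 0.25 ng and 30.4% at 4 ng. Cd3d, a chain of the T cell receptor complex, had 0, 0.616 and 0.218 CPM in input and 39.7, 44.6 and 72.8 CPM in IP (7.02 ± 0.83, adjusted p = 0.000361). The 4 ng libraries gave 5.84 ± 0.26 for it. Cd4, the coreceptor of helper T cells, had 0.21, 0.698 and 0 CPM in input and 19.4, 15.4 and 27.2 CPM in IP (5.57 ± 1.01, adjusted p = 0.00305). Cd8a and Cd8b1 encode the 2 chains of the coreceptor of cytotoxic T cells and both had more reads in IP in every mouse at 0.25 ng. Cd8a had 0 reads in every input and 60, 177 and 25 reads in IP, 140-fold above the 3-read floor (adjusted p = 0.00475). Cd8b1 had 36, 11 and 0 reads in input and 106, 131 and 116 reads in IP, a log2 fold change of 3.14 ± 1.22 that did not pass (adjusted p = 0.0771). It passed with DESeq2 (adjusted p = 0.0121), with scaling by totals (0.0454) and without input replicate 1 (0.041) or input replicate 3 (0.0466). At 4 ng both genes passed, with 3.54 ± 0.46 and 4.84 ± 0.37.

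Cd6, a surface receptor of T cells, was the listed T cell gene whose 0.25 ng values were furthest from the other amounts. It had 0, 28 and 41 reads in input and 17, 8 and 51 reads in IP at 0.25 ng, so that the fractions overlapped, and the log2 fold change was 0.31 ± 1.45 (adjusted p = 0.889). At 4 ng it had 0, 0.162 and 0 CPM in input and 3.26, 9.09 and 7.07 CPM in IP, with 6.27 ± 0.83 (adjusted p = 0.000115). TruSeq gave 0 reads in all inputs and 1.43, 15.9 and 9.41 CPM in IP. The difference between the 0.25 ng and 4 ng changes, −5.92 ± 1.96, did not pass the test over all genes (adjusted p = 0.729).

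Natural killer cell genes rose in 9 of 11 tested, with a median log2 fold change of 5.32, and in 12 of 12 at 4 ng. The shares over all genes tested were 19.8% and 30.4%. Gzma, a granzyme of killer cells, had 0.042, 0.78 and 2.83 CPM in input and 50.0, 79.7 and 90.0 CPM in IP (5.41 ± 0.93, adjusted p = 0.0024). Its error at 4 ng was 0.39. Prf1, the pore-forming protein perforin, had 0, 24 and 0 reads in input and 11, 24 and 58 reads in IP, with 2.13 ± 1.71 (adjusted p = 0.373). It passed without the libraries of mouse 2 (adjusted p = 0.0438) or without input replicate 2 (0.0342), and at 4 ng it gave 5.36 ± 0.80 (adjusted p = 0.000273).

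B and plasma cell genes rose in 11 of 13 tested, with a median of 4.76, and Sdc1 fell. Of all genes tested, 19.8% rose and 17.1% fell. Without the libraries of mouse 2, 7 of 12 B and plasma cell genes rose. Ighm, the heavy chain of immunoglobulin M, had 5.04, 3.98 and 9.24 CPM in input and 155, 209 and 173 CPM in IP (4.40 ± 0.36, adjusted p = 6.02e-05). Cd79a, a signalling chain of the B cell receptor, had 1.01, 0.288 and 0.741 CPM in input and 32.2, 92.6 and 48.4 CPM in IP (5.91 ± 0.59, adjusted p = 0.000157). Sdc1 encodes a proteoglycan of plasma cells that epithelial cells and hepatocytes also carry, and it had 278, 265 and 171 CPM in input against 69.1, 77.6 and 42.6 CPM in IP (−2.37 ± 0.31, adjusted p = 0.000638).

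**Figure D1:**
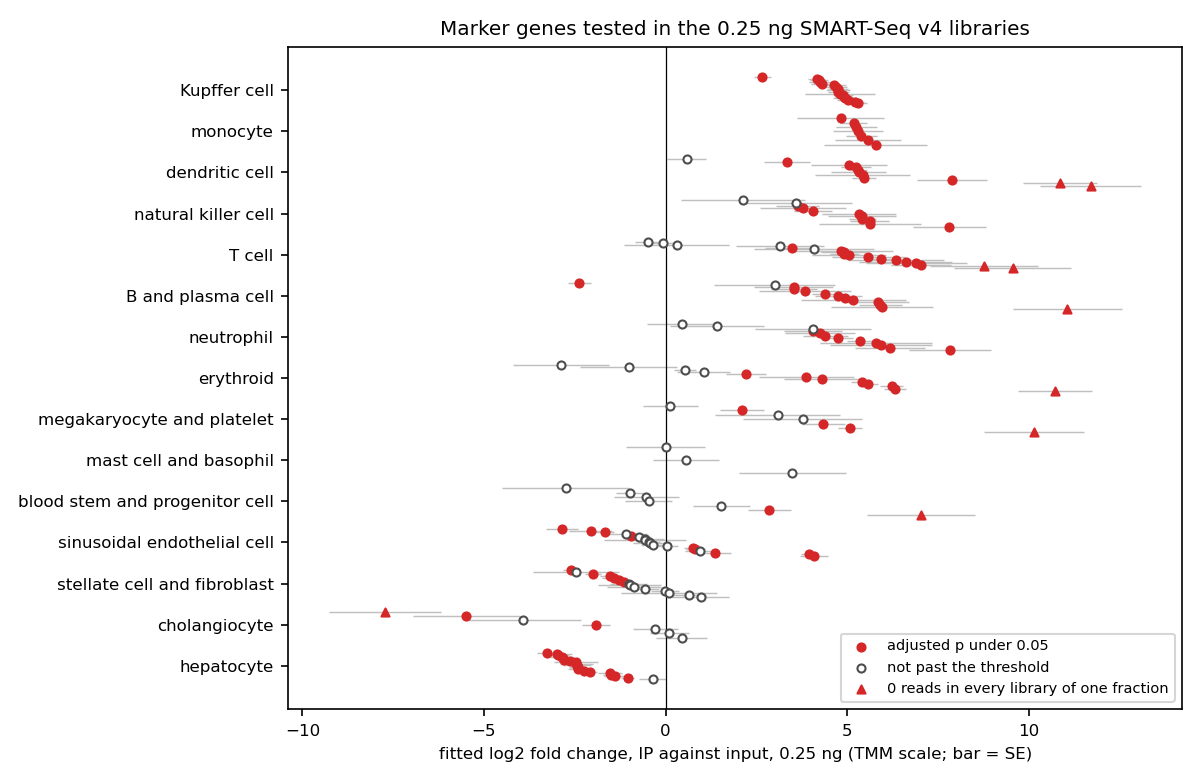
Fitted log2 fold change of IP against input at 0.25 ng (x axis, TMM scale, bars are 1 SE, n = 3 per fraction) for each tested gene of 15 marker lists (y axis). All 17 Kupffer cell genes lie between 2.65 and 5.30, hepatocyte genes lie below 0 (G6pc at 0.12 when libraries are scaled by totals), and triangles mark genes with 0 reads in every library of one fraction, whose fitted value is no measure of size.

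Neutrophil genes rose in 9 of 12 tested (median 4.58), against 19.8% of all genes tested, and 3 of the 15 listed were too low to be tested. S100a8, a calcium-binding protein abundant in neutrophils, had 1.60, 1.93 and 3.53 CPM in input and 91.6, 62.5 and 112 CPM in IP (4.76 ± 0.41, adjusted p = 8.24e-05). Mpo, the myeloperoxidase of early granules, had 0, 2 and 0 reads in input and 10, 31 and 78 reads in IP (5.80 ± 1.54, adjusted p = 0.0183). This call rested on few reads and was lost without the libraries of mouse 1 (adjusted p = 0.0614) or mouse 3 (0.125), and also without input replicate 1 (0.0753), input replicate 3 (0.0698) or IP replicate 3 (0.0746).

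Megakaryocyte and platelet genes rose in 4 of 7 tested at 0.25 ng and in 8 of 9 at 4 ng, against 19.8% and 30.4% of all genes. Treml1, a receptor of platelet granules, had 0 reads in every input and 66, 78 and 258 reads in IP. It stood 217-fold above the 3-read floor (adjusted p = 0.00191). At 4 ng the inputs had 0, 0.203 and 0 CPM of it. Mast cell and basophil genes were close to the limit of detection, with summed levels of 2.48, 3.16 and 1.87 CPM in input and 13.5, 13.6 and 5.17 CPM in IP. Of 10 listed genes 3 were tested, Gata2, Hdc and Cd200r3, and their log2 fold changes of 0.00, 0.55 and 3.49 did not pass with edgeR or DESeq2. Without IP replicate 3 the test took in 6 genes and 3 rose, and without input replicate 1 it took in 6 and 1 rose. Mcpt8, a basophil protease, had 0 reads in every input and 29, 37 and 0 reads in IP at 0.25 ng, whereas every 4 ng IP library held it, at 0.486, 1.58 and 0.985 CPM.

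Blood stem and progenitor cell genes gave 2 calls of 7 tested, Procr and Myb, where 19.8% of all genes tested rose. Myb, a transcription factor of blood progenitors, had 0 reads in every input and 12, 24 and 9 reads in IP. It stood 24.2-fold above the 3-read floor (adjusted p = 0.0118). With mouse as a block its adjusted p was 0.0783. It was also lost without the libraries of mouse 1 (0.0573) or mouse 2 (0.0592) and without input replicate 1 (0.0565), 2 (0.0562) or 3 (0.0504). The list's count was 1 of 7 with that block and without any one input library. At 4 ng the IP libraries held 2.50, 2.45 and 2.43 CPM of Myb.

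Erythroid genes were the marker list with the highest summed level in IP. That level was 2145, 1840 and 1519 CPM in input and 181303, 153122 and 130786 CPM in IP, and 8 of 12 tested genes rose. Over all genes tested the share that rose was 19.8%. Without the libraries of mouse 2, 5 of 13 erythroid genes rose. Hbb-bs, a beta globin, had 898, 816 and 654 CPM in input and 102291, 83480 and 72700 CPM in IP (6.31 ± 0.30, adjusted p = 1.27e-05), beside 6.31 ± 0.38 at 4 ng. Globin genes lie in pairs of near-identical copies, and how their reads were divided is uncertain. Alas2, the erythroid enzyme of haem synthesis, differed between mice in IP, with 67.9, 64.3 and 39.4 CPM in input and 112, 704 and 324 CPM in IP (2.22 ± 0.55, adjusted p = 0.014). Its call was lost without the libraries of mouse 2 (0.0642) or mouse 3 (0.0915) or without input replicate 3 (0.0549). The 4 ng libraries of the same mice had 111, 692 and 318 CPM in IP. Klf1, an erythroid transcription factor, had 1.51, 2.14 and 8.80 CPM in input and 0, 1.13 and 1.29 CPM in IP (−2.89 ± 1.32, adjusted p = 0.125) and fell at 4 ng (−1.28 ± 0.40, adjusted p = 0.0189).

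Sinusoidal endothelial cell genes moved both ways. Of 18 tested 5 rose and 4 fell (median −0.44), close to the shares of all genes tested (19.8% higher and 17.1% lower), beside 5 and 10 at 4 ng (median −0.62). The list's median was 0.03 when libraries were scaled by totals, with 6 higher and 2 lower, and the block by mouse left 3 higher and 3 lower. Leaving out any single library left 2 to 4 higher and 2 or 3 lower. Cdh5, the cadherin of endothelial junctions, had 9.87, 3.53 and 9.06 CPM in input and 153, 184 and 191 CPM in IP (4.08 ± 0.39, adjusted p = 0.000127). Mrc1, the mannose receptor, which Kupffer cells also express, had 21.4, 15.7 and 22.1 CPM in input and 420, 424 and 412 CPM in IP (3.94 ± 0.22, adjusted p = 1.79e-05). Clec4g, a lectin of the sinusoidal lining, had 46.8, 41.2 and 29.6 CPM in input and 6.16, 12.2 and 4.08 CPM in IP (−2.86 ± 0.44, adjusted p = 0.00137). Lyve1, a hyaluronan receptor of the same cells, had 10.8, 10.7 and 10.9 CPM in input and 2.79, 13.8 and 5.17 CPM in IP (−1.08 ± 0.57, adjusted p = 0.183). It passed without IP replicate 2 (adjusted p = 0.0209) and at 4 ng (−1.40 ± 0.30, adjusted p = 0.00246).

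Hepatocyte genes fell in 19 of 20 tested, against 17.1% of all genes, with a median of −2.44 at both SMART-Seq v4 amounts. Every one was read in every library. Alb, serum albumin, had 47748, 49303 and 47789 CPM in input and 9318, 9314 and 10025 CPM in IP (−2.81 ± 0.18, adjusted p = 2.35e-05). Cyp7a1, the rate-limiting enzyme of bile acid synthesis, had 107, 250 and 173 CPM in input and 22.3, 56.4 and 59.3 CPM in IP (−2.45 ± 0.41, adjusted p = 0.0021). G6pc, the last enzyme of glucose release, was the exception, with 373, 846 and 605 CPM in input and 344, 935 and 740 CPM in IP (−0.36 ± 0.38, adjusted p = 0.498, and 0.12 with scaling by totals). The TruSeq and 4 ng values of G6pc did not pass either. The summed level of the 20 genes was 34126 to 35046 CPM in the 0.25 ng IP libraries, beside 136222 to 152389 CPM in input.

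Stellate cell and fibroblast genes fell in 6 of 15 tested (median −1.02), and 11 fell and 1 rose at 4 ng. Of all genes tested, 17.1% fell at 0.25 ng and 28.7% at 4 ng. Dcn, the matrix proteoglycan decorin, had 247, 253 and 275 CPM in input and 63.0, 53.8 and 58.0 CPM in IP (−2.62 ± 0.20, adjusted p = 4.25e-05). Cholangiocyte genes, which mark the bile duct lining, fell in 3 of 7 tested, against 17.1% of all genes tested. That count ranged from 1, without input replicate 2, to 4, without IP replicate 1. It was 2 without input replicate 1 or 3, and 2 with the block by mouse. Krt19, the duct keratin, had 48, 100 and 95 reads in input and 4, 0 and 0 reads in IP (−5.48 ± 1.47, adjusted p = 0.019). It lost its call without the libraries of mouse 2 (0.0948) or 3 (0.0951) and without input replicate 2 (0.0639) or 3 (0.0605). The tight junction gene Cldn7 had 31, 41 and 14 reads in input and 0 in every IP library. Its input was 17.5-fold above the level of 3 reads over the IP libraries (adjusted p = 0.00905). With mouse as a block the adjusted p was 0.0558, and it was 0.0509 and 0.0504 without the libraries of mouse 1 or mouse 2. The 4 ng IP libraries all held Cldn7, at 0.764, 1.33 and 0.406 CPM, and its log2 fold change there was −0.68 ± 0.56 (adjusted p = 0.321).

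**Figure D2:**
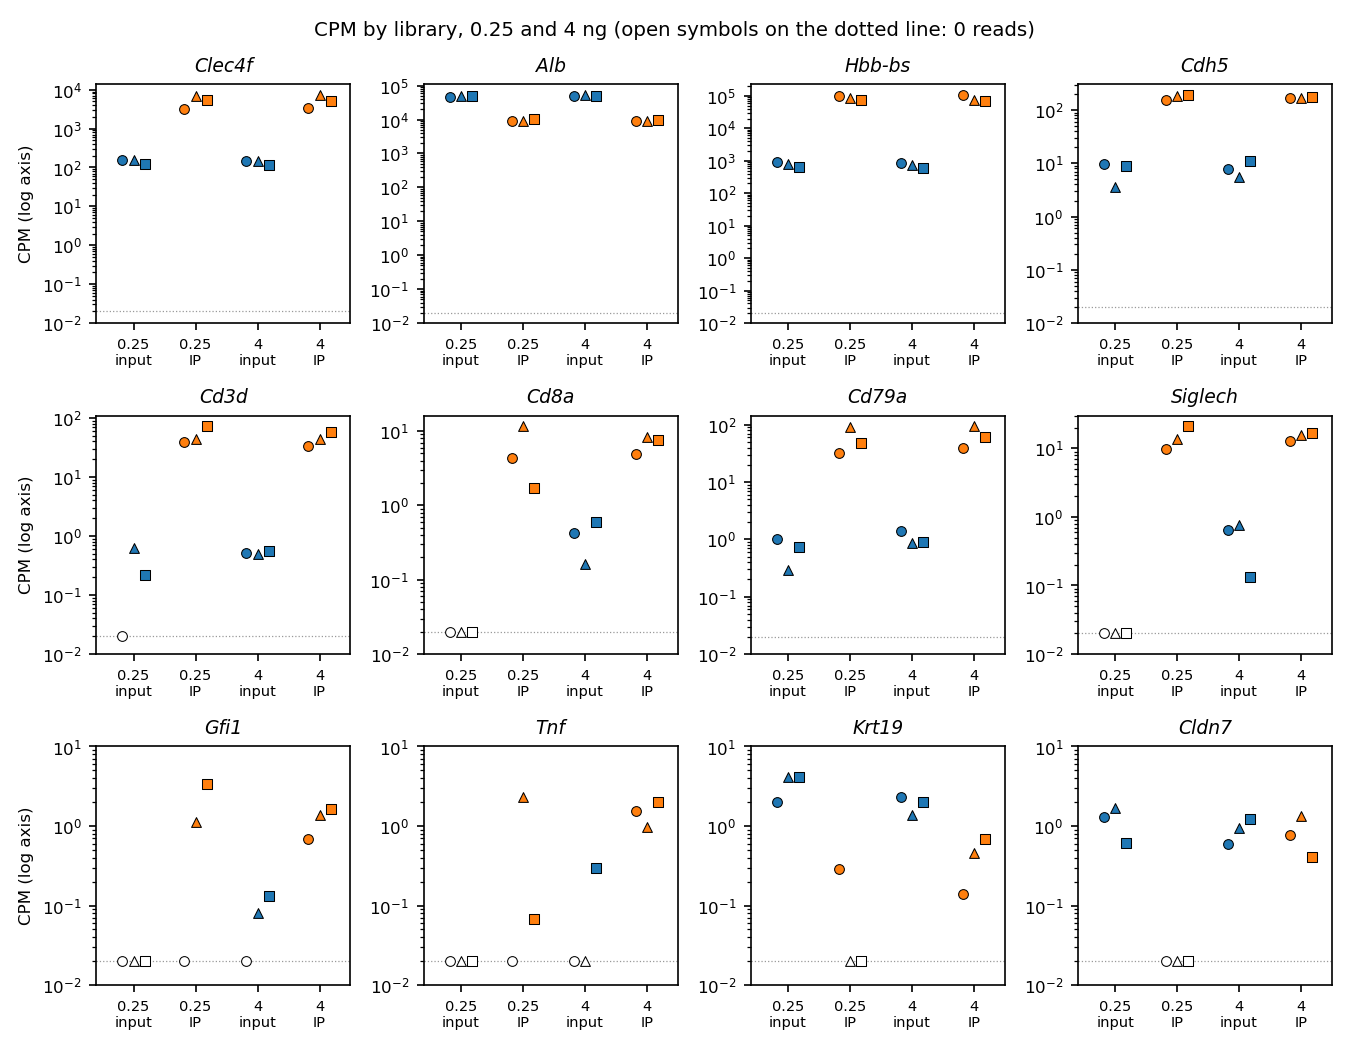
CPM (y axis, log scale) of 12 listed genes in the input (blue) and IP (orange) libraries at 0.25 ng and 4 ng, with circle, triangle and square for mice 1, 2 and 3 and open symbols on the dotted line for 0 reads. Clec4f, Alb and Hbb-bs hold the same positions at both amounts, Cd8a and Siglech have 0 reads in all 3 inputs at 0.25 ng and not at 4 ng, and Cldn7 has 0 in all 3 IP libraries at 0.25 ng.

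Of 34 blood lineage transcription factors, 29 were tested, and 18 rose and 1 fell, with a median of 3.96. At 4 ng 22 rose and 3 fell. The shares of all genes that rose were 19.8% at 0.25 ng and 30.4% at 4 ng. Irf4, a factor of lymphocytes and dendritic cells, had 0 reads in all inputs at both SMART-Seq v4 amounts. It had 135, 175 and 90 reads in IP at 0.25 ng, 217-fold above the 3-read floor (adjusted p = 0.001). The untested members were Gfi1, Gfi1b, Gata1, Tal1 and Foxp3.

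Of 31 cytokines and chemokines, 21 were tested at 0.25 ng and 14 rose, while 26 were tested and 24 rose at 4 ng. Over all genes tested these shares were 19.8% and 30.4%. Ccl24, a chemokine for eosinophils, had 7.52, 6.20 and 5.84 CPM in input and 382, 497 and 451 CPM in IP (5.61 ± 0.22, adjusted p = 1.27e-05). Ccl9, a chemokine for myeloid cells, was the member that fell, with 196, 215 and 183 CPM in input and 53.1, 82.9 and 70.0 CPM in IP (−2.01 ± 0.20, adjusted p = 0.000151). Inflammatory cytokines of low level fell under the test's filter. Tnf had 0 reads in every input and 0, 35 and 1 reads in IP, and Ifng had 0 reads in every input and 0, 10 and 26 in IP. The 4 ng IP libraries held 1.53, 0.97 and 2.03 CPM of Tnf and 1.11, 0.868 and 0.985 CPM of Ifng, and both passed there (3.17 ± 0.95, adjusted p = 0.0156, and 4.47 ± 0.90, adjusted p = 0.00177).

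Among genes with a mean of at least 10 CPM that changed the same way in every mouse, the 10 largest fitted rises were those of H2-Ob, Kcnj10, Cd209a, Trim30c, Myo1f, Cyfip2, Myo1g, Ripor2, Adap1 and Ccdc88b. In the first 4 of these the input was at 0 in all 3 libraries and the others had few input reads. Their mean level came from IP, and their order is no measure of size. H2-Ob, a class II accessory chain of B cells and dendritic cells, had 530, 792 and 738 reads in IP (adjusted p = 3.75e-05). It stood 1113-fold above the 3-read floor, while its fitted fold was 49.0 at 4 ng and 24.8 in TruSeq. Kcnj10, a potassium channel, stood 776-fold above that floor, beside fitted folds of 55.7 at 4 ng and 18.5 in TruSeq. Trim30c stood 599-fold above it, beside 59.6 at 4 ng and 3.06 in TruSeq, where it did not pass (adjusted p = 0.563). The 10 largest falls were those of Cyp3a41a, Ugt1a6b, Ugt1a9, Slc39a4, Ugt1a1, Gm9826, Habp2, Bhmt-ps1, Serping1 and Pon1, among them enzymes of drug and bilirubin metabolism. Slc39a4, a zinc transporter, had 138, 184 and 140 CPM in input and 6.23, 9.17 and 9.12 CPM in IP (−4.73 ± 0.24, adjusted p = 1.31e-05). Ugt1a1, the enzyme that conjugates bilirubin, had 92.6, 122 and 78.6 CPM in input and 1.07, 11.6 and 4.83 CPM in IP (−4.57 ± 0.68, adjusted p = 0.00123). The Ugt1a genes share their last exons, so that their counts cannot be fully separated. Cyp3a41a had 6.51, 1.56 and 53.2 CPM in input (−5.43 ± 1.61, adjusted p = 0.029) and lost its call without the libraries of mouse 1 (0.103) and without input replicate 3 (0.207), IP replicate 1 (0.0874) or IP replicate 2 (0.0865).

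The change from input to IP was then compared between 0.25 ng and 4 ng in a single fit of the 12 SMART-Seq v4 libraries. Of 15976 genes, 1 (0.00626%) differed and it was higher at 0.25 ng, while 721 had an unadjusted p under 0.05 and DESeq2 called 71. That gene was Myo1f, an unconventional myosin of leukocytes (chromosome 17, 33555707 to 33607764), with a difference of 5.60 ± 0.68 (adjusted p = 0.0311). It had 3, 0 and 0 reads in input and 642, 1076 and 822 reads in IP at 0.25 ng, whereas the 4 ng inputs had 2.12, 1.67 and 1.82 CPM and the 4 ng IP libraries 38.2, 62.8 and 46.7 CPM. The IP levels of the 2 amounts overlapped and the input levels did not. With the 0.25 ng inputs this near 0, the fitted difference is no measure of size. With the RNA sample (mouse and fraction) as a block the adjusted p of the difference was 0.236. It was 0.478, 0.361 and 0.782 without the libraries of mouse 1, 2 or 3.

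Direct comparison of input at 0.25 ng with input at 4 ng gave 2 genes (0.0125%), both lower at 0.25 ng. They were Myo1f and Ripor2, a regulator of leukocyte polarity and migration, which had 2, 0 and 0 input reads at 0.25 ng and 1.48, 0.731 and 1.46 CPM at 4 ng. At an unadjusted p under 0.05 there were 89 genes higher and 646 lower. With the RNA sample as a block no gene passed, and DESeq2 called 83. In IP no gene passed with edgeR, 127 were higher and 442 lower at an unadjusted p under 0.05, and DESeq2 called 35. Of 248 listed genes that entered the test of the difference, none passed with edgeR, 21 had an unadjusted p under 0.05, and the smallest adjusted p was 0.282.

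The share of genes called between fractions depended on their level and on the amount of RNA. Of genes with a mean of 1 to 10 CPM over the TruSeq libraries, 16.2% were called at 0.25 ng and 47.8% at 4 ng, and the median standard error of the log2 fold change was 0.804 against 0.372. Of genes at 10 to 100 CPM, 44.2% against 65.6% were called. Above 100 CPM the shares were 72.9% and 79.2%, with errors of 0.234 and 0.204. Of genes at 0.1 to 1 CPM, 3.32% were called at 0.25 ng and 13.6% at 4 ng.

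Detection showed the same dependence on level. A 0.25 ng input library held 16564 ± 390 genes with at least 1 read (SD, n = 3) and an IP library 16741 ± 187, beside 19343 ± 264 and 20291 ± 396 at 4 ng. At the depth of the smallest library the expected numbers were 16104 ± 334 and 16710 ± 192 at 0.25 ng and 18336 ± 36.0 and 19979 ± 184 at 4 ng. The groups did not overlap on either measure. Protein-coding genes made up 12811 ± 203 and 13138 ± 171 of them at 0.25 ng and 14283 ± 124 and 14720 ± 141 at 4 ng. Long intergenic noncoding RNAs numbered 354 ± 24.0 and 349 ± 14.2 at 0.25 ng and 574 ± 31.6 and 668 ± 30.9 at 4 ng. Of all genes seen in input at 0.25 ng, 28.2% were seen in only 1 or 2 of the 3 libraries, and 28.6% in IP, beside 24.9% and 25.4% at 4 ng.

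Genes were also grouped by their level in the TruSeq libraries of the same fraction. All genes above 100 CPM were read in every 0.25 ng library, and of those at 10 to 100 CPM 99.89% were read in an input library and 99.84% in an IP library. At 1 to 10 CPM, 94.9% ± 1.4 were read in input and 89.8% ± 1.4 in IP at 0.25 ng, against 99.3% ± 0.11 and 98.3% ± 0.25 at 4 ng. In this class 88.6% of genes were read in all 3 inputs and 79.6% in all 3 IP libraries at 0.25 ng, against 98.7% and 96.9%. The median level of the class was close at both amounts, 3.36 and 3.46 CPM in input and 3.76 and 3.93 CPM in IP. The median coefficient of variation between mice was 0.42 against 0.22 in input and 0.59 against 0.30 in IP. At 0.1 to 1 CPM, 54.3% ± 3.1 and 50.9% ± 2.7 of genes were read at 0.25 ng and 79.0% ± 1.9 and 81.1% ± 1.8 at 4 ng.

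**Figure D3:**
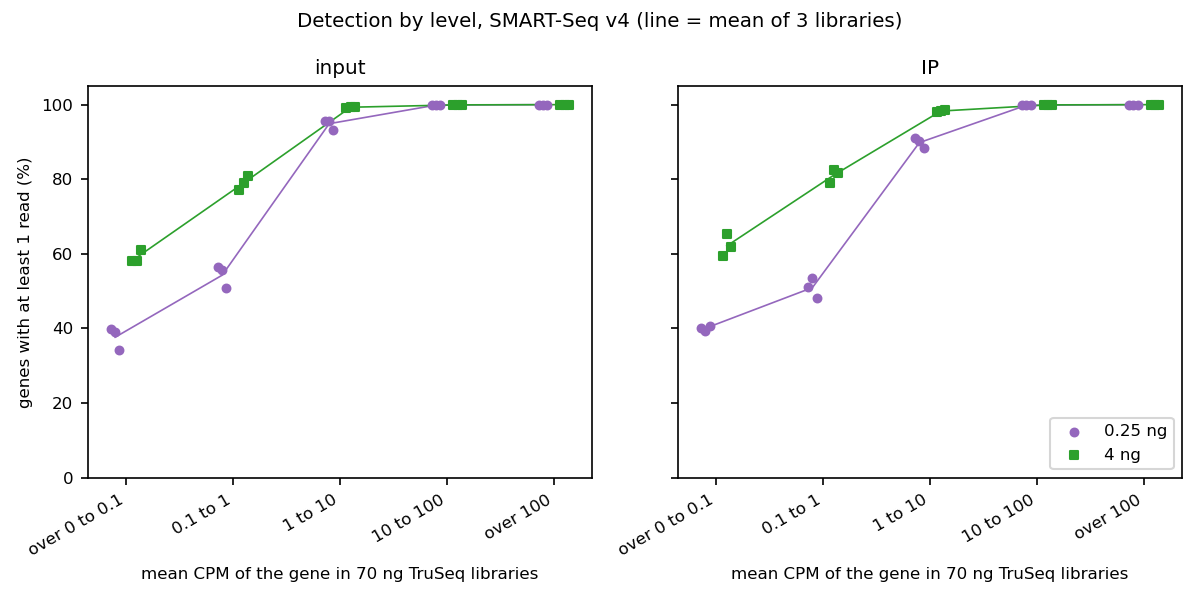
Share of genes with at least 1 read (y axis, percent) in each 0.25 ng library (purple circles) and 4 ng library (green squares) by the gene's mean CPM in the TruSeq libraries of the same fraction (x axis), with lines through the means of 3 libraries. The amounts coincide above 10 CPM, and at 1 to 10 CPM in IP the means are 89.8% and 98.3%.

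Complete loss depended on level. Of genes at 0.1 to 1 CPM in TruSeq, 23.7% had 0 reads in all 3 inputs and 26.5% in all 3 IP libraries at 0.25 ng. At 4 ng these shares were 8.19% and 7.11%. At 1 to 10 CPM they were 0.702% and 2.17% at 0.25 ng, against 0.254% and 0.468%. Complete loss was rare among genes with at least 10 reads in every 4 ng and every TruSeq library. The median 4 ng level of those genes was 14.5 CPM in input and 24.1 CPM in IP. In input, 2 of 12308 genes (0.0162%) with at least 10 reads in every 4 ng and every TruSeq library had 0 reads in all 3 libraries at 0.25 ng. They were Rpusd2, which had 52, 27 and 25 reads in the 4 ng inputs, and Adamts15, a secreted protease, with 30, 14 and 18. In IP there were 7 of 12214 (0.0573%), namely Rad51c, Gk5, Htr7, E230013L22Rik, Xkr6, Fancb and Sfn. Rad51c, a DNA repair gene, had 29, 26 and 37 reads in the 4 ng IP libraries and 89, 49 and 197 in TruSeq. The opposite, 0 in all 3 libraries at 4 ng with at least 10 reads in every 0.25 ng and TruSeq library, occurred in 0 of 11575 genes in input and 0 of 11555 in IP.

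Loss from single libraries was more frequent. In input, 341 of the 12308 genes (2.77%) had 0 reads in at least 1 of the 3 libraries, and in IP 289 of 12214 (2.37%), while the reverse at 4 ng was again 0 in both fractions. Of the 341 genes 318 were protein coding, as were 11151 of all 12308 and 1540 of the 1972 under 3 CPM at 4 ng. The median level of the 341 in the 4 ng inputs was 1.45 CPM with a highest value of 5.54 CPM. Their median transcript length was 3834 bases, beside 3276 bases for the 1972 genes. In IP the lengths were 3226 bases for the 289 genes and 2930 for those under 3 CPM. These lengths were not tested, and the sets differ in their share of protein-coding genes. The highest IP level of a gene lost in this way was 10.1 CPM. That gene was Mfsd6, a membrane transporter, with 214, 0 and 176 reads at 0.25 ng and 182, 164 and 160 at 4 ng. Alox12, the lipoxygenase of platelets, had 90, 269 and 0 reads in the 0.25 ng IP libraries and 69, 208 and 135 at 4 ng. In input, Heyl, a target of Notch signalling, had 89, 18 and 0 reads at 0.25 ng and 121, 128 and 190 at 4 ng. These 3 genes were chosen from the highest 4 ng levels after the values were seen.

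**Figure D4:**
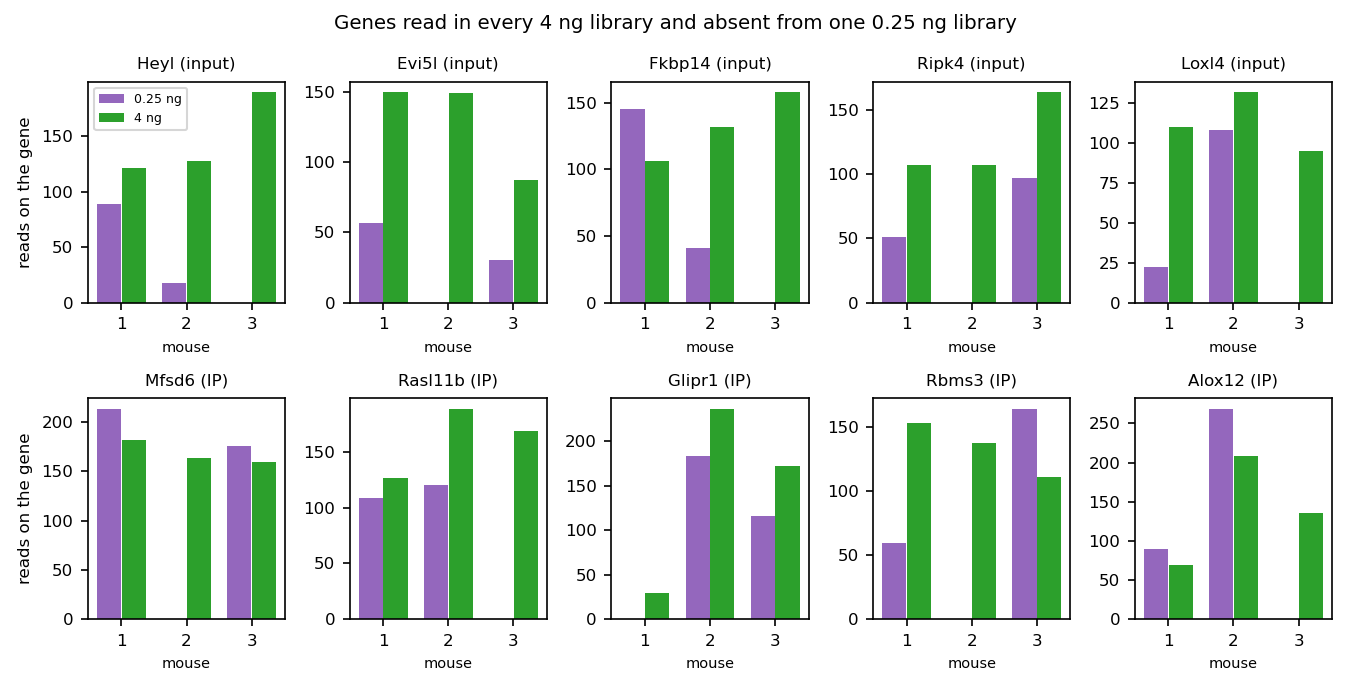
Reads on a gene (y axis) for each mouse (x axis) in the 0.25 ng (purple) and 4 ng (green) libraries, for the 5 genes per fraction with the highest 4 ng level among those with 0 reads in at least 1 of the 3 libraries at 0.25 ng. Mfsd6 has 214, 0 and 176 reads at 0.25 ng and 182, 164 and 160 at 4 ng.

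Some genes were seen in 1 fraction only. At 0.25 ng, 133 genes had 0 reads in every input and at least 10 in every IP library, beside 28 at 4 ng and 100 in TruSeq. In the other direction 34 genes had 0 reads in every IP library and at least 10 in every input, beside 2 at 4 ng and 93 in TruSeq.

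Zeros were also counted within the marker lists. The T, natural killer, B, neutrophil, dendritic, monocyte, megakaryocyte and mast cell lists are 8 lists of less abundant blood cells with 98 genes. Of their 294 values over 3 libraries, 112 (38.1%) were at 0 reads in input at 0.25 ng, 47 (16.0%) at 4 ng and 104 (35.4%) in TruSeq. In IP the zeros were 21 (7.14%), 6 (2.04%) and 25 (8.50%). Over all 271 listed genes, which include these 98, the shares were 26.1%, 13.8% and 24.4% in input. In IP they were 11.2%, 5.04% and 11.4%. Of the 98 genes 82 were tested at 0.25 ng and 63 rose, beside 79 of 88 at 4 ng and 63 of 83 in TruSeq. Over all genes tested 19.8%, 30.4% and 18.1% rose. The median standard error of the 98 genes was 0.963, 0.428 and 0.930. Dendritic cell genes had zeros in 36.1% of input values at 0.25 ng, in none at 4 ng and in 16.7% in TruSeq, yet in no IP library of the 3 protocols. T cell genes had 40.4% zeros in input at 0.25 ng, 10.5% at 4 ng and 33.3% in TruSeq, and 5.26%, 3.51% and 3.51% in IP. Cholangiocyte genes went the other way, with 11.1% zeros in input and 44.4% in IP at 0.25 ng, and 3.70% in both fractions at 4 ng. In TruSeq they had 14.8% in input and 44.4% in IP, the same share as at 0.25 ng. Kupffer cell, sinusoidal endothelial cell and hepatocyte genes had no 0 in any of these libraries.

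**Figure D5:**
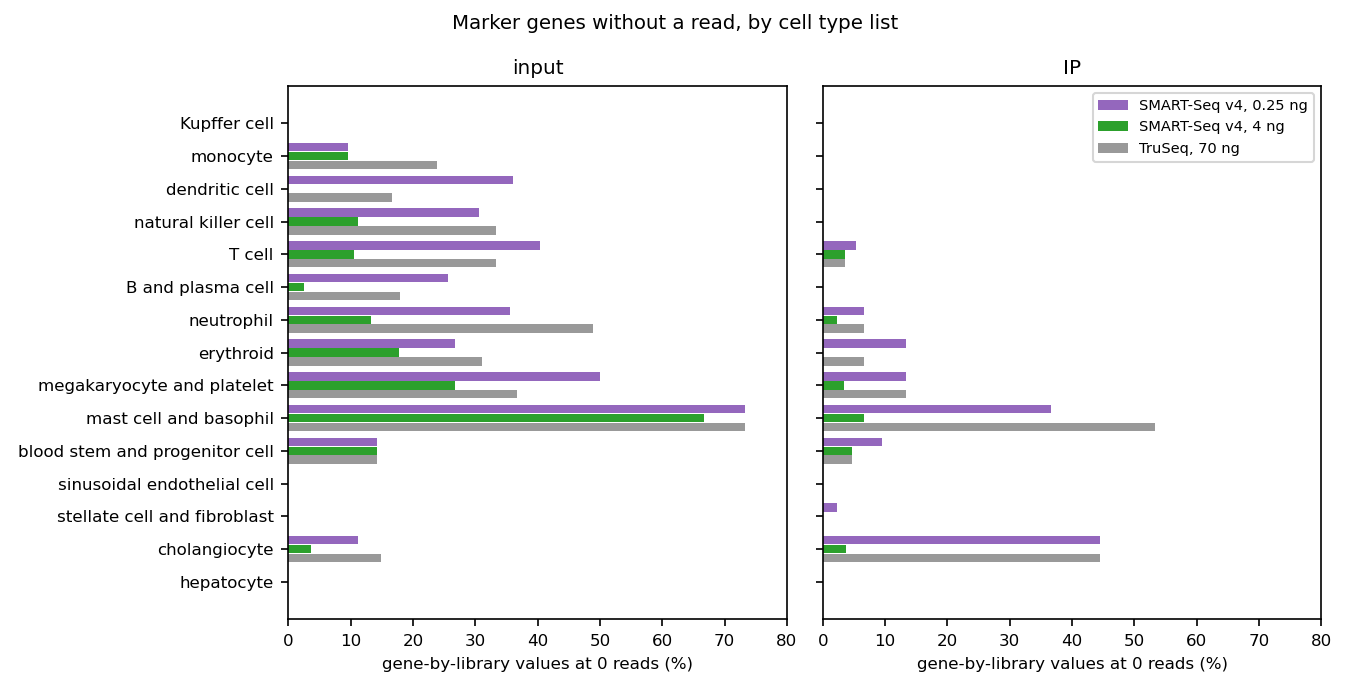
Share of gene-by-library values at 0 reads (x axis, percent) for 15 marker lists (y axis) in input (left) and IP (right), with bars for SMART-Seq v4 at 0.25 ng (purple) and 4 ng (green) and for TruSeq at 70 ng (grey). In IP the cholangiocyte list stands at 44.4% at 0.25 ng and in TruSeq and at 3.70% at 4 ng, while the dendritic cell list has no 0 in IP.

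Against TruSeq, 26 genes (0.161%) had a higher and 1 (0.00618%) a lower IP against input fold change at 0.25 ng, together 27 of 16190 (0.167%). With the RNA sample (mouse and fraction) as a block 178 passed. The 2 protocols differ in kit, amount and centre together. Mitochondrial mRNAs are translated on mitochondrial ribosomes without Rpl22. All 7 tested fell in IP at 0.25 ng, against 17.1% of all genes tested. Their median was −3.38 at 0.25 ng, beside −3.41 at 4 ng and −4.79 in TruSeq. The gene mt-Co1, a subunit of cytochrome oxidase, had 4298, 4873 and 5544 CPM in input and 335, 497 and 619 CPM in IP (−3.84 ± 0.24, adjusted p = 2.46e-05).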

How the data were processed

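Exon counts and RPKM values were used as deposited. The authors trimmed reads to a common length, aligned them with TopHat to GRCm38 and made read counts per gene and RPKM, with HTSeq and Bedtools named for counting. The strand setting is not given in the sources used here. The closing lines of the count files, which name no gene, were left out of totals and tests. Gene names, positions and classes came from the GENCODE M21 annotation on the same build, in which 47310 of 47729 gene identifiers were found. Of 272 listed genes 271 were matched. Single values of a few listed genes are not reported here, and those genes stay in the counts of their lists. The members and marker lists were chosen with earlier results of these data known.

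Fractions were compared with edgeR 4.0.16 (R 4.3.3), TMM scaling, filterByExpr and the quasi-likelihood test, with Benjamini-Hochberg adjustment over all genes tested and a threshold of 0.05. The comparison of amounts used a single fit of 4 groups. Standard errors were computed as the absolute log2 fold change divided by the square root of the quasi-likelihood F statistic. Where a fraction is at 0 reads such an error is no measure of precision. A fold against a group at 0 in every library was taken against 3 reads over that group. This floor covers counting error only and gives no lower bound of the change. Detection was counted at 1 read and as the expected number at 13971566 reads. Named genes were Gfi1, Rpl22 and list members, the 10 largest rises and falls past the test (same direction in each mouse, mean of at least 10 CPM), the 10 smallest p of each test of a difference, and the 10 dropped genes of highest level.

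Libraries with the same number are from the same mouse, so a fit with mouse as a block was also made. At 0.25 ng the deviations of same-numbered input and IP libraries from their group means correlated across genes at 0.122, 0.0837 and 0.128. Alternatives were DESeq2 1.42.0, its size factors in edgeR, totals without mitochondrial and rRNA genes, other filters, limma 3.58.1 on log2(RPKM + 1), and each library or mouse left out. The test scripts were tested on simulated data. The replicates are 3 mice.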

Additional observations from a re-analysis of the deposited data

Results flagged for a closer look

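The change from input to IP differed between 0.25 ng and 4 ng in the test of that difference for Myo1f, by 5.60 ± 0.68 (SE, log2, adjusted p = 0.0311, edgeR). With the RNA sample (mouse and fraction) as a block the adjusted p was 0.236, and without the libraries of any one mouse 0 genes passed. The inputs at 0.25 ng held 0.126, 0 and 0 CPM of it and the inputs at 4 ng 2.12, 1.67 and 1.82 CPM. With the 0.25 ng inputs this near 0, the fitted difference is no measure of size.

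Between 0.25 ng SMART-Seq v4 and 70 ng TruSeq the change differed in 27 genes. Without the libraries of any one mouse 0 genes passed, while 12 passed with DESeq2's size factors, 178 with the RNA sample as a block and 367 with DESeq2. The 10 of smallest p are given here as the 0.25 ng change minus the TruSeq change (log2, edgeR). The gene ENSMUSG00000035349, without a symbol, differed by 4.23 (adjusted p = 0.0132). Cyfip2, a regulator of actin, differed by 5.97, Exph5 by 9.40, Ncor1 by 1.74, mt-Nd5 by 2.12, H2-Ob by 8.33, Polr2a by 2.18 and Kmt2e by 2.26, each with an adjusted p of 0.0269. A1cf differed by 2.42 and mt-Nd6 by 2.27, each with an adjusted p of 0.0292. At 0.25 ng H2-Ob had 0 reads in every input and Cyfip2 had 1, 0 and 1. For these genes, and for Exph5 in TruSeq IP, a fraction was at or near 0, so their fitted differences are no measure of size. Exph5 had 4.87, 3.52 and 16.1 CPM in the 0.25 ng IP libraries and 0.0358, 0 and 0 CPM in the TruSeq IP libraries, while its inputs lay between 2.70 and 5.74 CPM in both. The transcriptional corepressor Ncor1 rose in IP at 0.25 ng (0.58 ± 0.17, adjusted p = 0.0295) and at 4 ng (0.51 ± 0.15, adjusted p = 0.0138) and fell in TruSeq (−1.12 ± 0.19, adjusted p = 0.0019). Kit, amount and centre cannot be told apart here.

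For Tspan8, a cholangiocyte gene, all 3 mice had less in IP than in input at 0.25 ng, with a mean difference of −1.58 CPM, and all 3 had more at 4 ng, with 0.36 CPM. For Fancb, a DNA repair gene, the mean difference was −3.45 CPM at 0.25 ng and 1.75 CPM in TruSeq, again in opposite directions in all 3 mice. Fancb was also named for having 0 reads in all 3 IP libraries at 0.25 ng, which fixed its direction there. These directions flagged 2 cases among 120 genes of the text. In the fits over all genes the difference was not past the threshold for Tspan8 (adjusted p = 0.977 against 4 ng) or for Fancb (adjusted p = 0.0673 against TruSeq), and no separate test of the CPM differences was made, so that form of the difference was not tested.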

How the results depend on the processing

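The count of 5280 genes called between fractions at 0.25 ng stayed within 1.5 times of itself under every alternative, from 3709 without the libraries of mouse 3 to 5966 with DESeq2. The genes called changed more than their count. With the replicate block by mouse 5109 genes were called, 4803 of them among the 5280. Scaling by totals called 5517, with 4343 among the 5280, and limma on log2(RPKM + 1) called 4181, with 2514 among them. The block by RNA sample left 0 genes in the difference from 4 ng and 0 between the inputs of the 2 amounts, and 178 in the difference from TruSeq. In the order difference from 4 ng, input against input and difference from TruSeq, DESeq2 called 71, 83 and 367 genes and testing every gene with a read gave 8, 38 and 304, while 0 passed without any one mouse. DESeq2 called 35 between the IP groups, and its size factors in edgeR gave 12 against TruSeq. The TruSeq count of 5123 ranged from 2877 to 4533 without any one mouse.

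At a minimum of 5 reads, 14698 and 15060 genes were detected in 0.25 ng input and IP, 15741 and 16544 at 4 ng and 15127 in TruSeq input. At equal depth 16104, 18336 and 15598 genes were expected in the inputs of 0.25 ng, 4 ng and TruSeq. By level class from low to high, a minimum of 5 reads gave 19.7%, 40.7%, 91.5% and 99.70% in 0.25 ng input, 21.6%, 38.9%, 84.4% and 99.62% in its IP, 25.5%, 54.6%, 97.2% and 99.80% in 4 ng input and 31.1%, 56.4%, 94.7% and 99.76% in its IP. Classes set by replicates 1 and 2 of the TruSeq libraries from 4 ng gave 22.1%, 51.0% and, above 100 CPM, 99.97% in 0.25 ng input, and 25.3%, 44.6% and 99.98% in its IP. For 4 ng they gave 40.4% in the lowest class, 99.96% at 10 to 100 CPM and 99.95% above in input, and 50.2%, 76.7%, 98.7% and 99.93% in IP. Genes lost from all libraries at 0.25 ng were 1 in input and 1 in IP at a minimum of 20 reads, 13 and 28 without the TruSeq condition (the reverse in input was then 1), and 13 to 44 and 22 to 60 without any one mouse.

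Among single genes, G6pc was 0.12 with scaling by totals, and Cd6 was −0.10 without the libraries of mouse 1, −0.28 without input replicate 1, and ran from −0.56 without IP replicate 3 to 1.06 without input replicate 3. None of these passed. The causes were not tested. In the IP libraries 3 reads correspond to about 0.2 CPM, but genes well above that were also read in some libraries and not in others. Of genes at 1 to 10 CPM in TruSeq, 18.3% were read in only 1 or 2 of the 3 IP libraries at 0.25 ng. At 4 ng this share was 2.68%. With the same 3 mice a fold change of a gene at 1 to 10 CPM carried a median standard error of 0.804 at 0.25 ng and 0.372 at 4 ng.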

Other observations

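Of 9 listed untranslated nuclear RNAs, 5 were tested at 0.25 ng and 2 rose, where 19.8% of all genes tested rose. Of the 9, 3 had 0 reads in every input and every IP library. The count of these RNAs that rose was 1 to 3 under the edgeR and DESeq2 alternatives. Kcnq1ot1, an imprinting transcript, had 6.97, 4.56 and 4.31 CPM in input and 298, 169 and 212 CPM in IP (log2 fold change 4.97 ± 0.36, adjusted p = 3.58e-05). Malat1, a nuclear RNA, had 334, 348 and 492 CPM in input and 1530, 723 and 1473 CPM in IP (1.20 ± 0.33, adjusted p = 0.02). Malat1 lost its call without the libraries of mouse 1 (adjusted p = 0.158) or 3 (0.0699) and without input replicate 1 (0.0761), input replicate 2 (0.0716), IP replicate 1 (0.0641) or IP replicate 3 (0.0575). At 4 ng its IP values were 1530, 729 and 1556 CPM, and in TruSeq 82.2, 85.5 and 125 CPM.

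The 2 deposited measures differ for mitochondrial mRNAs. Of 13 listed, 7 passed the filter on exon counts and 13 of 13 were tested and lower in IP on RPKM values. The gene mt-Atp6 had 0 reads in every 0.25 ng input by exon counts and 6531, 7638 and 9306 RPKM.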
